A study of Rattus norvegicus with 9 samples.

Results

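The Sox transcription factors Sox2, Sox4, Sox9, Sox10 and Sox11 were followed across primary retinal progenitor cells (P-RPC) and 2 types of retinal progenitor cells differentiated from rat embryonic stem cells (rESC-RPC1 and rESC-RPC2). Members were chosen by gene symbol in the annotation of the array's probe sets, groups of short probes that each read 1 transcript. This gave 13 of the 31042 probe sets that are not controls, for 4 of the 5 genes: 4 for Sox2, 7 for Sox4, 1 for Sox10 and 1 for Sox11. Sox9 has no probe set under its symbol in this annotation and was not analysed here. Their Entrez gene identifiers are 499593 for Sox2, 364712 for Sox4, 29361 for Sox10 and 84046 for Sox11.

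P-RPC were unsorted cells of the retinal tissue of SD rats at postnatal day 1, dissociated with papain. Both rESC-RPC types came from 1 embryonic stem cell line of DA rats, grown as floating aggregates (the SFEBq method) with Matrigel and the Wnt inhibitor IWR-1e, and both were harvested on day 16. The rESC-RPC1 aggregates were digested and plated on day 10 and moved to N2 medium with serum on day 14, while the rESC-RPC2 aggregates stayed in suspension until day 14 and were then plated. Each group has 3 arrays, which the labels call biological repeats. Strain and culture differ together between P-RPC and the rESC-RPC, as do plating day and N2 medium between the rESC-RPC types, and these cannot be told apart.

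Sox proteins bind DNA through a high mobility group box related to that of Sry and act with partner factors. Sox2, of the SoxB1 group, maintains neural progenitors and is needed for retinal progenitor competence. Sox4 and Sox11, of the SoxC group, are present in cells leaving the cycle and act in neuronal differentiation, including that of retinal ganglion cells. Sox9 and Sox10, of the SoxE group, act in glia: Sox9 in retinal progenitors, Müller glia, astrocytes and cartilage, and Sox10 in oligodendrocytes, neural crest and melanocytes. Only messenger RNA was measured here, and in bulk samples fewer cells of a type and less RNA per cell cannot be told apart.

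The windows upstream of Sox2 and Sox11, the genes with a probe set past both thresholds below, are shown for the DNA from which these transcripts start. Each is the 250 bases before the RefSeq start on build GRCr8, 5′ to 3′ on the gene's strand, with the letters of GGGCGG and CCAAT boxes in capitals. RefSeq entries were matched for 2 of the 5 genes. The Sox2 window is chr2:119464881-119465130 on the plus strand and the Sox11 window is chr6:49738795-49739044 on the minus strand.
Sox2: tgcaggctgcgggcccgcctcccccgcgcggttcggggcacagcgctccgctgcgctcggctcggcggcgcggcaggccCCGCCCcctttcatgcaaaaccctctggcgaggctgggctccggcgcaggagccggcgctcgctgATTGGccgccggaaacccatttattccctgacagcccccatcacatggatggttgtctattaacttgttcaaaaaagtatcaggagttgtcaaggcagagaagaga
Sox11: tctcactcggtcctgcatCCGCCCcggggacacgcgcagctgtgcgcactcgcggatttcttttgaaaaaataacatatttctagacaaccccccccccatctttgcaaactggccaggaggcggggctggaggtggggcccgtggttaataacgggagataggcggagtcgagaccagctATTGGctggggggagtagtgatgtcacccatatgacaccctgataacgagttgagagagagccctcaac
The Sox2 window is 64.4% G and C and the Sox11 window 56.8%, against a median of 51.2% over 33469 promoter windows of the same length. Each holds GGGCGG, as CCGCCC on the printed strand, 171 bases before the start in Sox2 and 232 in Sox11. Each also holds CCAAT, as ATTGG, at 106 and 69 bases before the start. These letters occur on either strand in 30.47% and 34.02% of all the windows. The TATAAA and ACAAT letters, found in 12.93% and 30.02% of windows, are in neither. The motifs were picked after the sequences had been seen, and a match is a description of the letters only.

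Values are MAS 5.0 signals on a linear scale, and differences are on the log2 scale. A signal under 122.57, the median of all values, is called under the threshold below, and probe sets that reached it on 3 or more of the 9 arrays were tested. Of 8 retinal progenitor genes on the array, 7 reached the threshold on every P-RPC array, 5 on every rESC-RPC1 array and 4 on every rESC-RPC2 array. Pax6, a retinal progenitor factor and Sox2 partner, was under it on every rESC-RPC2 array. The photoreceptor genes Crx, Gnat2 and Prdm1 and all 6 microglia genes were under the threshold on every rESC-RPC array, so those tested passed the filter through P-RPC alone and could differ in 1 direction only. Otx2, the other photoreceptor gene tested, and Kdr, the 1 endothelial gene tested, were called lower in both rESC-RPC types than P-RPC. The other endothelial genes, Pecam1, Tek, Tie1, Flt1 and Emcn, were under the threshold on every array, P-RPC included. The pluripotency list had 0 genes on the array. In 5 lens genes P-RPC replicate 1 differed from the other arrays, with a summed signal of 46166.5 against 1018 and 3279.9 in the other P-RPC arrays and at most 208 in the rest. Without that array the number of Sox probe sets called stayed at 1, 1 and 0 in the 3 comparisons.

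Sox2, in 2 of its 3 tested probe sets, and Sox11 were higher in both rESC-RPC types than P-RPC, Sox4 was lower in rESC-RPC1 in 4 of 6, mostly by less than 2-fold, and Sox10 was under the threshold throughout. A probe set was called when its limma adjusted p was under 0.05 and its fold at least 2. In rESC-RPC1 against P-RPC, 1 of 10 tested Sox probe sets was called, a higher Sox2 probe set, where 21.9% of all 17048 tested probe sets were called (11.3% higher and 10.6% lower). In rESC-RPC2 against P-RPC, 1 of 10 was called, the higher Sox11 probe set, against a background of 23.9% (11.4% higher and 12.4% lower). In rESC-RPC2 against rESC-RPC1, 0 of 10 were called by limma, against 14.2% (6.38% higher and 7.82% lower), and the methods' t-test also called 0. Of these 10, 4 had an unadjusted limma p under 0.05, where 44.4% of all tested probe sets were under 0.05 even after adjustment. The share of Sox probe sets called was below the background in each comparison. However, 6 of the 10 are Sox4 and probe sets of 1 gene share their target, so these are counts over 3 genes. By the brightest probe set of each gene, 0, 1 and 0 of the 3 were called, where 21.5%, 23.7% and 14.3% of all tested genes were. A share over 3 genes cannot be placed below or above these. Without rESC-RPC1 replicate 3 the count in rESC-RPC1 against P-RPC was 3 (with Sox2 1379942_at at 1.04 and Sox11 at 1.22 added), without P-RPC replicate 3 it was 2, and without rESC-RPC1 replicate 2 the count between the rESC-RPC types was 1.

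With the adjusted p alone and no limit on fold, 7 of 10 Sox probe sets passed in rESC-RPC1 against P-RPC, 3 higher and 4 lower, where 57.1% of all tested probe sets passed (27.0% higher and 30.1% lower). In rESC-RPC2 against P-RPC 5 of 10 passed, 3 higher and 2 lower (both Sox4, and not in every alternative), against 60.6% (29.7% and 30.9%). In rESC-RPC2 against rESC-RPC1 4 of 10 passed, 2 in each direction, against 44.4% (22.0% higher and 22.4% lower). The arrays of the compared groups did not overlap for 7, 9 and 4 of the 10 Sox probe sets in these comparisons, against 64.4%, 70.8% and 51.2% of all tested probe sets. The median log2 change of the 10 was -0.28, -0.10 and 0.16, beside -0.05, -0.01 and 0.01 for all tested probe sets.

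**Figure D1:**
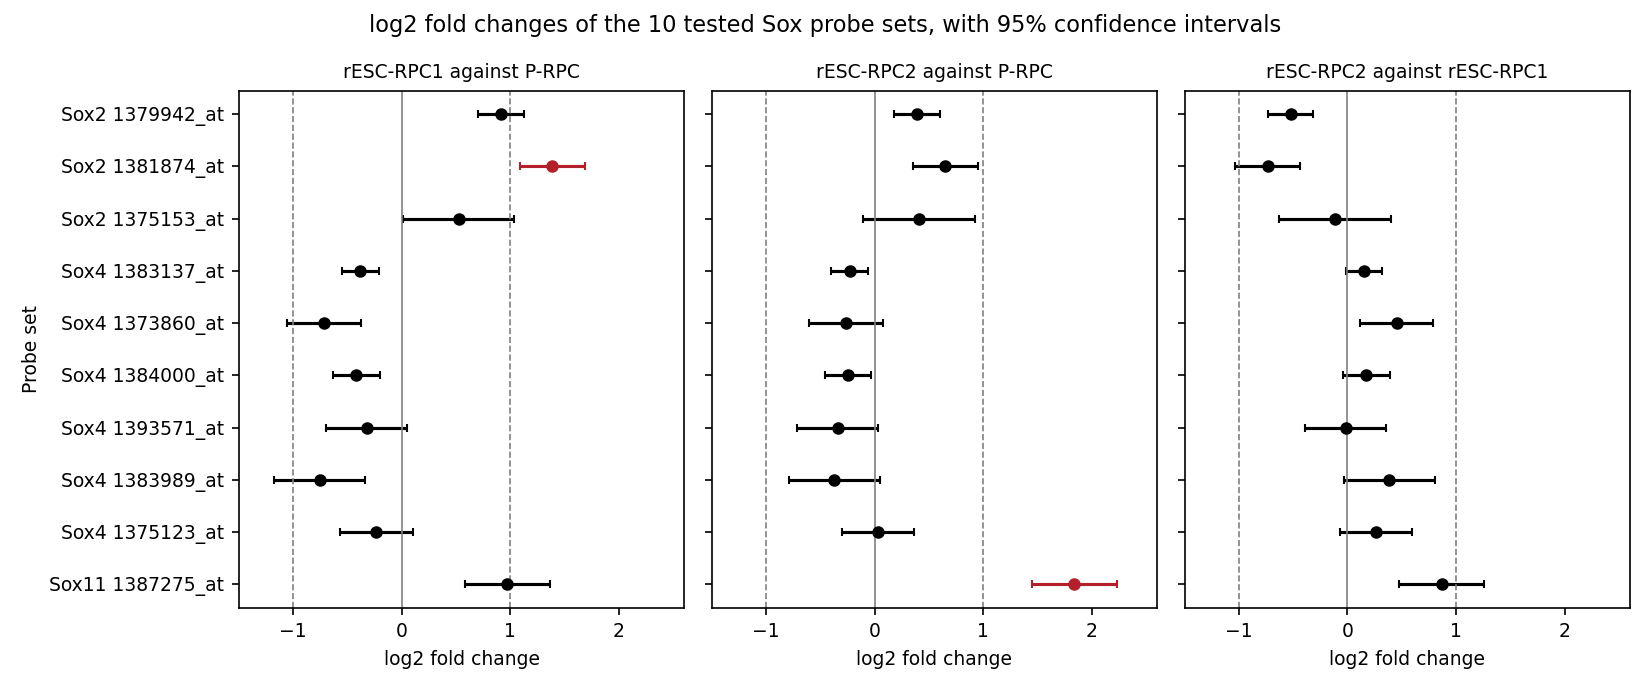
Log2 fold changes (x axis) of the 10 tested Sox probe sets (y axis) in the 3 comparisons, as points with 95% confidence intervals from limma. Dashed lines mark a fold of 2, and the red points are the called probe sets, Sox2 1381874_at at 1.38 in rESC-RPC1 against P-RPC and Sox11 1387275_at at 1.84 in rESC-RPC2 against P-RPC.

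Sox2 was highest in rESC-RPC1, intermediate in rESC-RPC2 and lowest in P-RPC. Its brightest probe set, 1379942_at, read 4942, 4901 and 4965 in P-RPC, 10340, 9979 and 7784.5 in rESC-RPC1, and 6273, 6498 and 6631 in rESC-RPC2. Every rESC-RPC1 array lay above every rESC-RPC2 array, which in turn lay above every P-RPC array, and rESC-RPC1 replicate 3 was the lowest of its group. The group means were 4936 ± 32.7, 9368 ± 1383 and 6468 ± 181 (SD, n = 3).

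The log2 change of this probe set was 0.91 ± 0.10 (SE) in rESC-RPC1 against P-RPC, with a limma adjusted p of 1.7e-05. This is 1.88-fold, with a 95% confidence interval from 1.63 to 2.18, so the call was missed on fold. In rESC-RPC2 against P-RPC it was 0.39, adjusted p = 0.0047, and in rESC-RPC2 against rESC-RPC1 it was -0.52, adjusted p = 0.0013. Each pair of groups differed at the adjusted p, by under 2-fold.

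The Sox2 probe set 1381874_at kept this order. It read 601.0, 627.6 and 596.3 in P-RPC, 1743, 1824 and 1259 in rESC-RPC1, and 919.1, 1037 and 910.1 in rESC-RPC2. The groups again did not overlap. It was called higher in rESC-RPC1 than P-RPC, at 2.61-fold (log2 1.38 ± 0.14, limma adjusted p = 1.1e-05). It was 0.65 higher in rESC-RPC2 than P-RPC (adjusted p = 0.0018) and 0.74 lower in rESC-RPC2 than in rESC-RPC1 (log2 change -0.74, adjusted p = 0.0014), neither past a fold of 2.

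The Sox2 probe set 1375153_at lay close to the threshold. Its signals were 124.6, 133.6 and 145.6 in P-RPC, 281.7, 182.9 and 139.8 in rESC-RPC1, and 172.1, 189.1 and 174.7 in rESC-RPC2. The rESC-RPC1 arrays spanned both other groups, and no comparison passed (limma adjusted p from 0.076 to 0.72). Its log2 change in rESC-RPC1 against P-RPC was 0.52, with a 95% confidence interval from 0.01 to 1.04, which holds the 0.91 of 1379942_at but not the 1.38 of 1381874_at. The last probe set, 1389826_at, stayed between 1.1 and 17.3 on all arrays and was not tested.

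**Figure D2:**
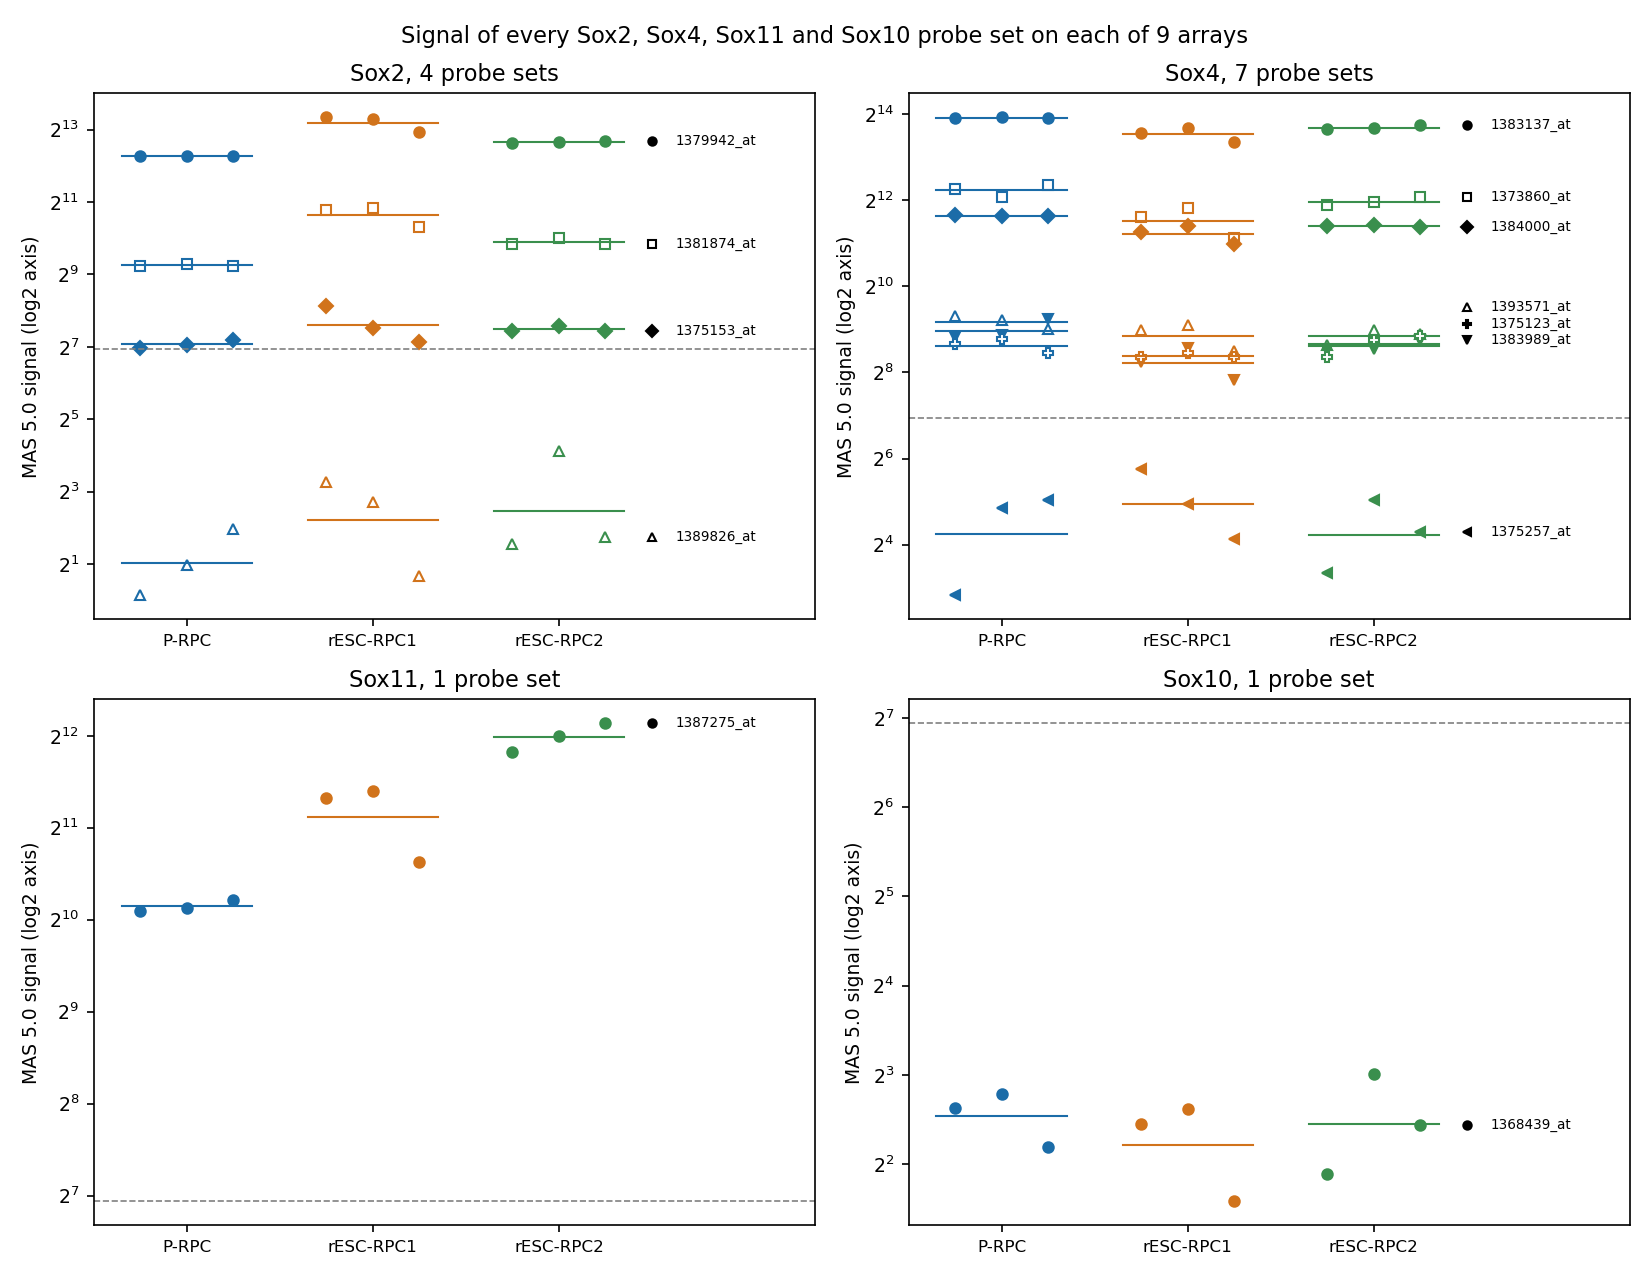
MAS 5.0 signal (y axis, log2 scale) of each Sox2, Sox4, Sox11 and Sox10 probe set in the 3 groups (P-RPC left, rESC-RPC1 middle, rESC-RPC2 right), with 1 point per array in replicate order, a line at the mean of the log2 values and a dashed line at the threshold of 122.57. Sox2 1379942_at and Sox11 form 3 separate levels, the brightest Sox4 probe set lies highest in P-RPC, and all Sox10 points, 3.0 to 8.1, lie under the threshold.

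Among known Sox2 partners and neural progenitor genes more were lower than higher in the rESC-RPC, while Sox2 was higher. In rESC-RPC1 against P-RPC 5 of 16 tested genes were called higher and 7 lower, and in rESC-RPC2 against P-RPC 4 were higher and 9 lower, where 21.5% (1192 higher and 952 lower) and 23.7% (1070 higher and 1292 lower) of all 9956 tested genes were called. Their median log2 changes were -0.78 and -1.37, against -0.01 and -0.02 for all tested genes. Pax6 had a mean signal of 13972 in P-RPC (SD 423, n = 3), 118 in rESC-RPC1 and 84.7 in rESC-RPC2, where it was at least 114-fold lower. Chd7, a chromatin remodeller that acts with Sox2, was lower by 2.25 in rESC-RPC1 (log2 change -2.25, limma adjusted p = 4.5e-07), and Prom1, a membrane protein of progenitors, was at -2.13 and -2.48 in the 2 comparisons. Vim, an intermediate filament of progenitors and glia, was higher in rESC-RPC1, at 26290.4 ± 1527 against 9984 ± 1238 in P-RPC (log2 1.40, adjusted p = 9.8e-07). POU factors, of the kind that pairs with Sox2, went both ways. Pou3f3 was called higher than P-RPC in rESC-RPC1 and rESC-RPC2 (log2 2.66 and 3.76). Pou3f4, under the threshold on every P-RPC array, was also called higher in both, by at least 1.20-fold in rESC-RPC2. It passed the filter through the rESC-RPC alone and could only be called higher than P-RPC. Its mean signal in rESC-RPC1, 97.0, was itself under the threshold, and no fold is given there. Pou3f1 was called lower in rESC-RPC1 (log2 change -1.44).

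Between the rESC-RPC types, 1 of these 16 genes was called higher in rESC-RPC2 and 2 lower, against 14.3% of all tested genes called (5.02% higher and 9.24% lower). Pou3f3 was higher in rESC-RPC2 (log2 1.10, limma adjusted p = 0.0040). Notch1, the receptor that keeps progenitors undifferentiated, and Otx2, a homeobox factor of photoreceptor precursors, were lower, at -1.10 and -1.76.

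Markers of astrocytes and radial glia, cells in which Sox2 is also known to be present, had a higher summed signal in rESC-RPC1 than P-RPC. Their summed signal over 10 genes ran from 16345 to 20648 in P-RPC, from 23922 to 50575 in rESC-RPC1 and from 17702 to 24191 in rESC-RPC2, where the highest array lay just above the lowest rESC-RPC1 array. In rESC-RPC1 against P-RPC 5 of 8 tested genes were called higher and 0 lower, where 21.5% of all tested genes were called. In rESC-RPC2 against P-RPC 3 were higher and 1 lower, against 23.7%, the lower being Gja1, the gap junction protein of astrocytes (log2 change -1.13, limma adjusted p = 0.0013). Between the rESC-RPC types 4 were lower in rESC-RPC2 and 0 higher, where 9.24% of all tested genes were called lower. Gfap, the intermediate filament of astrocytes and reactive Müller glia, exceeded P-RPC by at least 30.1-fold in rESC-RPC1 and by at least 7.48-fold in rESC-RPC2. Gfap, Aldh1l1, S100b, Aqp4 and Slc1a2 were under the threshold on every P-RPC array. Of these, Gfap, S100b and Aqp4 passed the filter through the rESC-RPC alone. In rESC-RPC1 against P-RPC these could be called in 1 direction only. The part of the glial markers in the Sox2 difference was not tested.

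Sox4 was lower in rESC-RPC1 than P-RPC by less than 2-fold. Its brightest probe set, 1383137_at, read 15424, 15543 and 15508.5 in P-RPC, 12186, 13187 and 10466 in rESC-RPC1, and 12832, 13138 and 13651 in rESC-RPC2. All P-RPC arrays lay above all arrays of both rESC-RPC types, whose own arrays overlapped. The log2 change was -0.38 ± 0.08 in rESC-RPC1 (limma adjusted p = 0.0015) and -0.23 in rESC-RPC2 (adjusted p = 0.022), both against P-RPC. In rESC-RPC2 against P-RPC the adjusted p was not under 0.05 in 8 of 19 limma alternatives, among them median centring (0.137), quantile normalization (0.0897) and the fits without any 1 of the P-RPC arrays (0.0543 to 0.0594). Between the rESC-RPC types it was 0.15, adjusted p = 0.13, with a 95% confidence interval from -0.02 to 0.32.

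The Sox4 probe set 1373860_at read 4908, 4344 and 5228 in P-RPC, 3148, 3612 and 2212 in rESC-RPC1, and 3772, 3987 and 4297 in rESC-RPC2. Its 3 groups did not overlap, and rESC-RPC1 was lowest. The log2 change was -0.72 in rESC-RPC1 against P-RPC (limma adjusted p = 0.0023), -0.26 in rESC-RPC2 against P-RPC (with an adjusted p of 0.16) and 0.45 in rESC-RPC2 against rESC-RPC1 (adjusted p = 0.033, and not under 0.05 in 7 of 18 limma alternatives, with a range of 0.0046 to 0.108).

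Over the 6 tested Sox4 probe sets the log2 change in rESC-RPC1 against P-RPC ran from -0.76 to -0.23, and 4 passed the adjusted p. In rESC-RPC2 against P-RPC it ran from -0.37 to 0.03, and 2 passed, 1383137_at and 1384000_at. The adjusted p of 1384000_at, 0.0495, was not under 0.05 in 11 of 18 limma alternatives, with a range of 0.0053 to 0.173. In rESC-RPC2 against rESC-RPC1 it ran from -0.02 to 0.45, and 1 passed. The dim probe sets 1393571_at, 1383989_at and 1375123_at lay between 226.7 and 636 on all arrays, and the seventh, 1375257_at, between 7.1 and 54.2, under the threshold. The widest interval, that of 1383989_at in rESC-RPC1 against P-RPC, ran from -1.17 to -0.34, so a fold of 2 lies within it for 1383989_at and, from -1.06 to -0.38, for 1373860_at.

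Sox11 was lowest in P-RPC, higher in rESC-RPC1 and highest in rESC-RPC2. Its 1 probe set, 1387275_at, read 1097, 1117 and 1184 in P-RPC, 2566.5, 2705 and 1576 in rESC-RPC1, and 3618, 4087 and 4496 in rESC-RPC2. None of the groups overlapped, and rESC-RPC1 replicate 3 lay nearest to P-RPC. The means were 1133 ± 45.9, 2282 ± 616 and 4067 ± 439 (SD, n = 3).

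Sox11 was called higher in rESC-RPC2 than P-RPC, at 3.58-fold (log2 1.84 ± 0.18, limma adjusted p = 8.5e-06, 95% confidence interval of the fold 2.73 to 4.69). In rESC-RPC1 against P-RPC the log2 change was 0.97 ± 0.18 (adjusted p = 0.00082), a 1.96-fold difference just short of the fold required. In rESC-RPC2 against rESC-RPC1 it was 0.87 (adjusted p = 0.0025), 1.82-fold. Without rESC-RPC1 replicate 3 the change in rESC-RPC1 against P-RPC was 1.22 and was called. Without P-RPC replicate 3 it was 1.00 and was called, and without rESC-RPC1 replicate 2 the change between the rESC-RPC types was 1.01 and was called.

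The log2 change of Sox11 exceeded that of Sox4 1383137_at by 1.35 in rESC-RPC1 against P-RPC, by 2.07 in rESC-RPC2 against P-RPC and by 0.72 in rESC-RPC2 against rESC-RPC1. A two-sided exact permutation test over the arrays gave p = 0.1 for each (0.1 also after adjustment over the 3 comparisons). This is the smallest that 3 arrays against 3 allow, so the test could not fall under 0.05 and decides nothing. Between the rESC-RPC types Sox4 1373860_at changed by 0.45 and 1383137_at by 0.15, so the excess there depends on the Sox4 probe set used.

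The 3 genes whose profile over the 9 arrays was most like that of Sox11 were Fez1, Adam23 and Negr1. The measure was the root mean square difference of log2 signals after each gene's own mean was subtracted, which was 0.088, 0.132 and 0.143 for them and 0.857 at the median of 9955 genes. Changes close to those of Sox11 follow from this choice. Fez1, an adaptor for kinesin transport in axons, changed by 1.00 in rESC-RPC1 and 1.93 in rESC-RPC2, both against P-RPC on the log2 scale. Adam23, a neuronal membrane protein, changed by 1.00 and 1.71, and Negr1, a neuronal adhesion protein, by 0.91 and 1.74.

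Genes of differentiating neurons, the setting in which SoxC proteins are known to act, were higher in rESC-RPC2 than in rESC-RPC1 in 10 of 20 tested genes and lower in 0. Their median log2 change was 1.05, against -0.03 for all tested genes, of which 5.02% were called higher. Ina, a neurofilament protein, read 5150 ± 54.3 in rESC-RPC2 and 1806 ± 126 in rESC-RPC1 (log2 1.51, limma adjusted p = 2.3e-06). Crmp1, Stmn3 and Stmn2, which act on the growing cytoskeleton of neurons, were higher by 1.30, 1.30 and 1.27.

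Against P-RPC the same list was mixed. In rESC-RPC2 7 of 20 genes were called higher and 5 lower, and in rESC-RPC1 1 was higher and 5 lower, where 23.7% and 21.5% of all tested genes were called. Dcx, a microtubule protein of young neurons, was higher in rESC-RPC2 than P-RPC (log2 1.67, limma adjusted p = 2.3e-05), while Neurod1, a basic helix-loop-helix factor of photoreceptor and amacrine precursors, was at least 109-fold lower. Tubb3, a neuronal tubulin known as a direct target of Sox11 and named here after its values were seen, had a log2 change of 1.08 in rESC-RPC2 and -0.37 in rESC-RPC1, both against P-RPC, with adjusted p of 0.000135 and 0.059. Tead2, a transcription factor also known as a SoxC target, was called lower in rESC-RPC2 than P-RPC (log2 change -1.09, adjusted p = 0.00018). Summed over the 20 genes, the signal was 72807 to 80566 for P-RPC and lower, at 45921 to 57511, for rESC-RPC1. The sum was highest for rESC-RPC2, at 94462 to 99661. Part of its fall in rESC-RPC1 was Neurod1, whose mean signal was 115 there against 13392 for P-RPC. In that comparison 14 of the 20 genes were not called. The part of neuron content in the Sox11 difference was not tested.

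Sox10 was under the threshold on every array. Its probe set 1368439_at read 6.2, 6.9 and 4.6 in P-RPC, 5.5, 6.1 and 3.0 in rESC-RPC1, and 3.7, 8.1 and 5.4 in rESC-RPC2. The 3 groups overlapped, and no fold is given between signals that are all under the threshold.

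Among oligodendrocyte lineage genes, where Sox10 is known to act, 2 of 5 tested were called higher and 0 lower in rESC-RPC1 against P-RPC, and 2 higher and 1 lower in rESC-RPC2 against P-RPC, where 21.5% and 23.7% of all tested genes were called. Their median log2 changes were 0.44 and -0.17. Both genes called higher, Olig1 and Nkx2-2, were under the threshold on every P-RPC array. They passed the filter through the rESC-RPC alone and could differ from P-RPC in 1 direction only. Olig1, a basic helix-loop-helix factor, exceeded P-RPC by at least 3.43-fold in rESC-RPC1 and 3.87-fold in rESC-RPC2, and Nkx2-2, a homeobox factor of ventral neural progenitors and oligodendrocyte precursors, by at least 2.78-fold and 3.22-fold. Cnp, a myelin enzyme, was lower in rESC-RPC2, at 925 ± 120 against 2016 ± 164 in P-RPC (SD, n = 3; log2 change -1.13, limma adjusted p = 9.4e-06). Olig2, Cspg4, Myrf, Mog and Mag were under the threshold on every array of all 3 groups. The lineage's summed signal ran from 2672 to 3142 in P-RPC, from 3257 to 3541 in rESC-RPC1 and from 2308 to 2735 in rESC-RPC2.

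Genes of the neural crest and of pigment cells, which Sox10 also serves, were called lower more often than higher in the rESC-RPC among the 8 tested. All 3 tested neural crest genes were called lower in both types, where 21.5% and 23.7% of all tested genes were called. Foxd3 and Erbb3 of this list were under the threshold on every array of all 3 groups, P-RPC included. No gene of this list reached the threshold on every array of either rESC-RPC type, so the tested ones passed the filter mainly through P-RPC. Among them was Ret, the receptor for glial cell line-derived neurotrophic factor, at least 11.7-fold lower in rESC-RPC1. Of 5 tested pigment genes 2 were called higher and 3 lower in rESC-RPC1 against P-RPC, and 0 higher and 4 lower in rESC-RPC2, where Tyr, Tyrp1 and Mlana were under the threshold on every array of both rESC-RPC types. Mitf, the pigment cell factor that Sox10 switches on in melanocytes, had a log2 change of 1.42 in rESC-RPC1 (limma adjusted p = 1.3e-05). It was called lower in rESC-RPC2 than in rESC-RPC1, at a mean signal of 165 ± 25.0 against 659 ± 59.3 (SD, n = 3).

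For Sox9 the genes of the settings in which it acts can be given, though not its own level. Of 7 tested Müller glia genes, 2 were called higher and 3 lower in rESC-RPC1 against P-RPC, 1 higher and 4 lower in rESC-RPC2 against P-RPC, and 5 lower in rESC-RPC2 against rESC-RPC1. The shares of all tested genes called were 21.5%, 23.7% and 14.3%. Abca8a, a membrane transporter, was under the threshold on every P-RPC array and at least 8.48-fold higher in rESC-RPC1 (limma adjusted p = 1.2e-07). The fit also called it higher in rESC-RPC2 than P-RPC, where both groups were under the threshold and no fold is given. Aqp4, a water channel, was called higher in rESC-RPC1, at 365 ± 296 against 42.1 ± 15.5 in P-RPC (SD, n = 3; limma adjusted p = 0.0063). Aqp4 was also under the threshold on every P-RPC array. Both genes called higher in rESC-RPC1 thus passed the filter through the rESC-RPC alone and could differ there in 1 direction only. The 3 called lower in rESC-RPC1 than P-RPC were Dkk3, Rlbp1 and Car14, at log2 changes of -2.51, -6.24 and -1.71. Their limma adjusted p were 3.6e-07, 0.00015 and 0.011. Rlbp1, the retinaldehyde-binding protein of Müller glia and pigment epithelium, was lower in rESC-RPC2 than P-RPC by at least 28.2-fold. The collagens known as Sox9 targets in cartilage did not move together: Col9a1 was at least 51.0-fold lower in both rESC-RPC types and Col2a1 lower by log2 changes of -2.94 and -1.67, while Col11a1 was higher by 2.23 and 1.59. Acan, Comp, Matn1 and Hapln1 of the same list were under the threshold on every array.

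Within rESC-RPC1, replicate 3 gave the lowest Sox signals. It was the lowest of its group in 10 of 10 tested Sox probe sets, against 41.9% of all tested probe sets, and replicate 2 was the highest in 8 of 10, against 40.3%. The 10 probe sets read 3 genes on the same arrays, so they are not 10 separate observations. The deviations of replicate 3 from the group mean ran from -0.49 for Sox11 to -0.04 for Sox4 1375123_at on the log2 scale. In rESC-RPC2 replicate 1 was the lowest in 8 of 10, against 39.1%.

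The median SD of the 10 Sox probe sets over replicates was 0.307 in rESC-RPC1, 0.0996 in rESC-RPC2 and 0.085 in P-RPC, where all tested probe sets had 0.196, 0.151 and 0.115. The summed signals of astrocyte and radial glia genes in rESC-RPC1 were 33374, 50575 and 23922 in replicates 1, 2 and 3, and those of differentiating neuron genes were 49735, 57511 and 45921. Replicate 3 was the lowest in both sums, and their part in the Sox values was not tested.

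**Figure D3:**
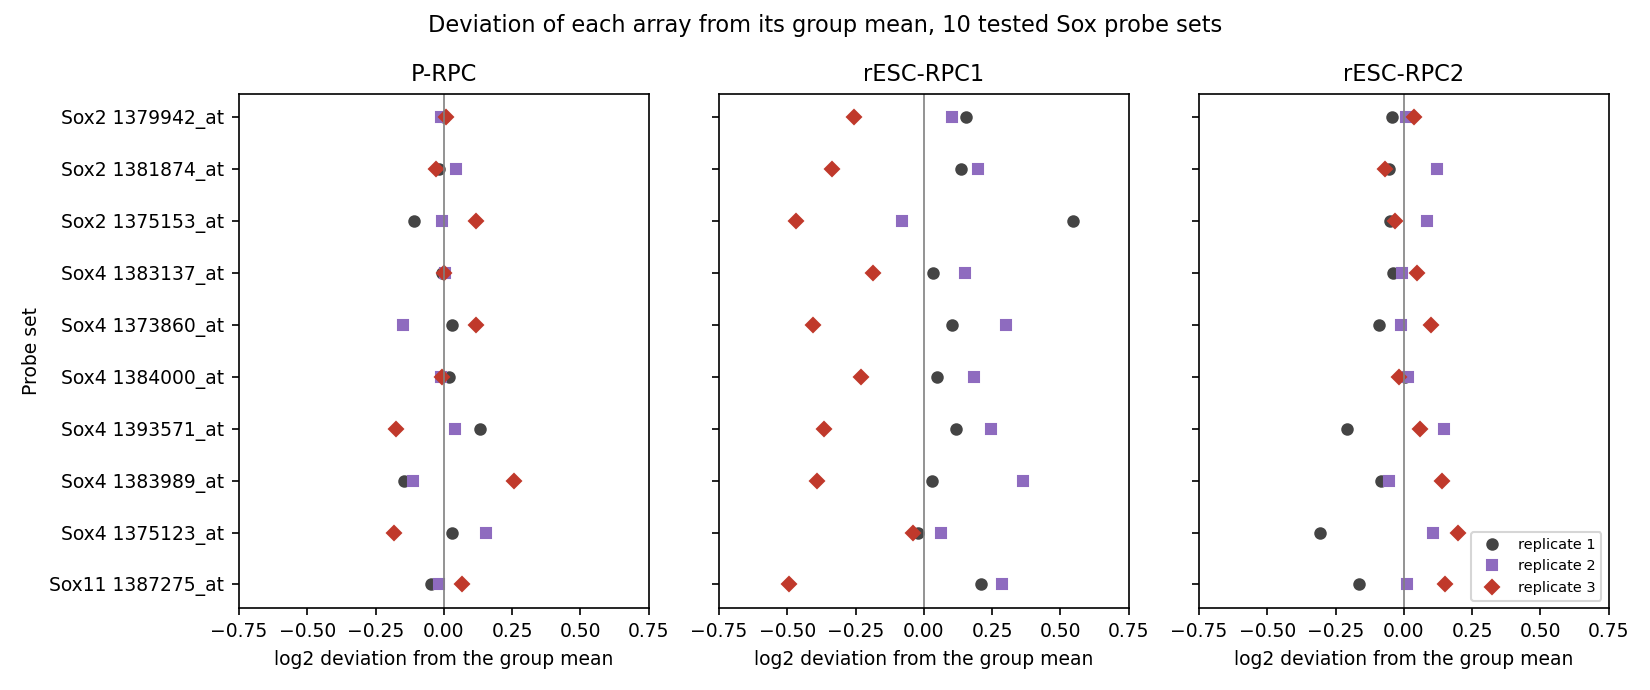
Deviation of each array from its group's mean log2 signal (x axis) for the 10 tested Sox probe sets (y axis), with replicates 1, 2 and 3 as circles, squares and diamonds. In rESC-RPC1 the replicate 3 diamonds lie left of the mean in all 10 rows, from -0.49 to -0.04, while the P-RPC arrays have a median SD of 0.085.

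Of 14 other Sox genes 10 had probe sets and 3 passed the filter. Sox3, a SoxB1 relative that overlaps with Sox2 in neural progenitors, was higher in both rESC-RPC types. It read 900.0, 853.3 and 958.2 in P-RPC, 2137, 1730.1 and 1674 in rESC-RPC1, and 2745, 1917 and 2057 in rESC-RPC2. The P-RPC arrays lay under all others, and the rESC-RPC types overlapped. Sox3 was called higher in rESC-RPC1 (log2 1.02, limma adjusted p = 0.00013) and in rESC-RPC2 (log2 1.29, adjusted p = 2.2e-05) against P-RPC, while the change between them was 0.27 (adjusted p = 0.15).

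Sox6, a SoxD factor that works beside Sox9 in cartilage and in oligodendrocyte precursors, read 63.1, 70.6 and 68.8 in P-RPC, 297.7, 324.0 and 246.3 in rESC-RPC1, and 358.6, 317.8 and 271.6 in rESC-RPC2. All P-RPC arrays were under the threshold and all rESC-RPC arrays above it. Sox6 thus passed the filter through the rESC-RPC alone and could only be called higher than P-RPC. Relative to P-RPC it was higher by at least 2.35-fold in rESC-RPC1 (limma adjusted p = 2.8e-06) and by at least 2.56-fold in rESC-RPC2 (adjusted p = 1.6e-06). The other Sox6 probe set, 1393376_at, was under the threshold on every array.

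Sox13, also of the SoxD group, read 362.7, 338.9 and 305.2 in P-RPC, 298.0, 263.4 and 183.5 in rESC-RPC1, and 78.9, 106.1 and 105.4 in rESC-RPC2. Only the rESC-RPC2 arrays were under the threshold. In rESC-RPC2 it was lower than P-RPC by at least 2.73-fold (limma adjusted p = 2.8e-05) and lower than rESC-RPC1 by at least 1.98-fold (adjusted p = 0.00042). Its log2 change in rESC-RPC1 against P-RPC was -0.46 (adjusted p = 0.077).

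Sox21, a SoxB2 factor known to counteract SoxB1 proteins in neurogenesis, reached the threshold on 2 of 9 arrays and was not tested. It read 54.6, 61.8 and 34.0 in P-RPC, 124.1, 143.2 and 111.3 in rESC-RPC1, and 118.9, 83.2 and 92.7 in rESC-RPC2. The P-RPC arrays were the lowest, and the rESC-RPC types overlapped. Sox1, Sox7, Sox12, Sox15, Sox17 and Sox18 were under the threshold on every array.

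**Figure D4:**
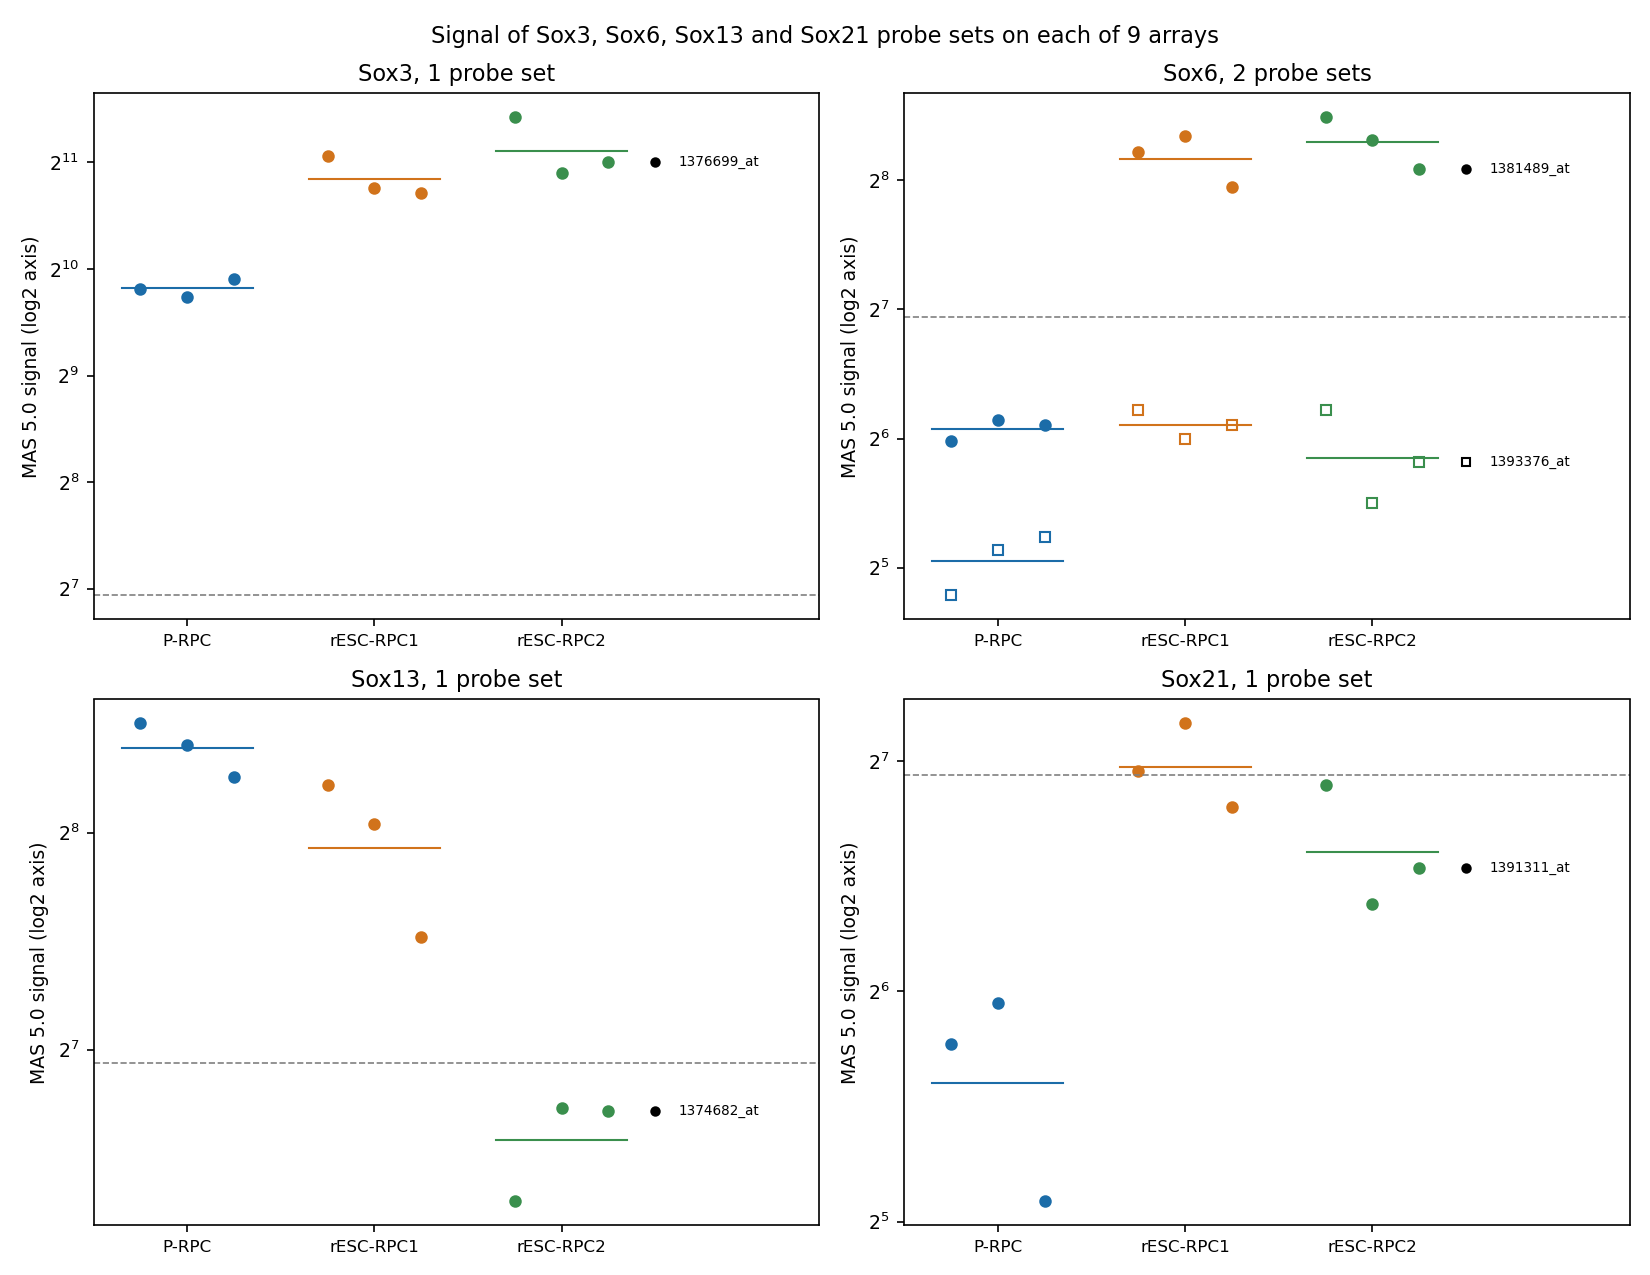
MAS 5.0 signal (y axis, log2 scale) of Sox3, Sox6, Sox13 and Sox21 probe sets in the 3 groups (P-RPC left, rESC-RPC1 middle, rESC-RPC2 right), with 1 point per array, a line at the mean of the log2 values and a dashed line at the threshold of 122.57. Sox3 and Sox6 1381489_at lie lower in all 3 P-RPC arrays, and Sox13 falls under the threshold on the 3 rESC-RPC2 arrays.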

How the data were processed

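RNA of the 3 groups, with 3 samples in each, was hybridised to Affymetrix rat whole-genome arrays. The authors removed the background and normalized the scans by the MAS 5.0 algorithm in GeneSpring software, and the deposited values are linear signal intensity per probe set. Their mean after trimming 2% from each end was 500.2 on every array. No scan date or batch was given.

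Of 31099 probe sets, 57 controls were left out. The platform annotation gave 1 symbol to 20826 of the rest, several to 436 and none to 9780, and 20758 matched the RefSeq gene table by Entrez identifier. Values were floored at 1 before log2 was taken. The fit used limma 3.58.1 in R 4.3.3 (lmFit, eBayes with a trend) on 17048 probe sets, 1 mean per group over all 9 arrays, with Benjamini-Hochberg adjustment over all of them, and was tested on simulated data. Sequences and motifs were read with Python 3.11.15. Each gene stands for its brightest probe set, which left 9956 tested genes of 14217. Where a group lay wholly under the threshold, the other group's mean over the threshold is given as an "at least" fold. Between 15095 and 15752 probe sets per array reached the threshold, and 3 arrays per group limit the precision.

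All Sox probe sets were named. From the other lists, counts are given with up to 4 called genes of smallest adjusted p in each comparison. Some further genes, among them the POU factors, Tubb3 and Tead2, were named after their values were seen. Members and lists were chosen with earlier results of these data known. Replicate numbers were checked for pairing and treated as unpaired, since deviations of arrays of the same number correlated at -0.06 to 0.31, over 0.1 for 1 of 9 pairs. Alternatives varied scaling, filter, floor, variance model, unit of the fit and arrays, and the methods' t-test was added after the data were seen.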

Additional observations from a re-analysis of the deposited data

How the results depend on the processing

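The counts of called Sox probe sets, 1, 1 and 0, were kept within 1.5 times in 59 of 63 alternatives. With 1 probe set per gene the count in rESC-RPC1 against P-RPC was 0, since the called Sox2 probe set is not the brightest of its gene. Leaving out single arrays gave 1 to 3 in rESC-RPC1 against P-RPC (3 without rESC-RPC1 replicate 3, 2 without P-RPC replicate 3), 1 throughout in rESC-RPC2 against P-RPC, and 0 to 1 in rESC-RPC2 against rESC-RPC1 (1 without rESC-RPC1 replicate 2). These fits kept the probe sets of the full filter. With the replicate number as a block the counts were 1, 1 and 0, and 3739, 4071 and 2436 of all tested probe sets were called against 3732, 4066 and 2422. The methods' t-test on the same values, chosen after seeing the data, called 1, 1 and 0 Sox probe sets at its unadjusted threshold and after Benjamini-Hochberg adjustment.

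Of 609 values for single Sox probe sets 596 kept direction and call, 4 became called and 9 changed sign, none of them called in either setting. Sox4 1375123_at in rESC-RPC2 against P-RPC was -0.06 without P-RPC replicate 3, -0.02 without rESC-RPC2 replicate 2 and -0.070 without rESC-RPC2 replicate 3, in a leave-one-out range of -0.070 to 0.18. Sox4 1393571_at in rESC-RPC2 against rESC-RPC1 was 0.0088 with quantile normalization, 0.038 with median centring, 0.043 without rESC-RPC1 replicate 1, 0.11 without rESC-RPC1 replicate 2 and 0.088 without rESC-RPC2 replicate 1 (leave-one-out range -0.20 to 0.11). Sox2 1375153_at in rESC-RPC2 against rESC-RPC1 was 0.16 without rESC-RPC1 replicate 1 (leave-one-out range -0.35 to 0.16). For these the cause was not tested.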
